A study of Mus musculus with 12 samples.

Results

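Genes of the vacuolar ATPase and of the cathepsin family were described in myeloid-derived suppressor cells (MDSCs) from mouse liver tumors. Members were all gene symbols beginning with Atp6v0 or Atp6v1 and all symbols made of Cts followed by letters or digits, except Ctsg. Of 24346 symbols, 45 matched, and the 29 with FPKM (fragments mapped to a gene, scaled to transcript length and to the library's total, a level per length) of at least 1 in 2 or more of the 12 libraries are described. These were 17 V-ATPase genes, of which 8 belong to the V0 and 9 to the V1 sector, and 12 cathepsin genes, of which 9 encode cysteine, 2 aspartic (Ctsd and Ctse) and 1 serine (Ctsa) proteases. Of the 16 symbols below that floor, 13 were listed at 0 in every library (Atp6v0a4, Atp6v1b1, Atp6v1e2, Atp6v1g3, Cts3, Cts6, Cts7, Cts8, Ctsj, Ctsll3, Ctsm, Ctsq and Ctsr), and Atp6v0e2, Atp6v1c2 and Ctsw were above 0 in some library.

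The cells were monocytic (M-MDSC) and polymorphonuclear (PMN-MDSC) MDSCs sorted by FACS from tumors that grew from Hepa 1-6 cells, a mouse hepatoma line, in the liver of wild-type female C57BL/6 J mice. Each cell type had 3 groups of 2 libraries, from mice given vehicle, MS-275 or CXD101. The study uses both agents as inhibitors of histone deacetylases 1 to 3, and its methods give the same daily dose and duration for both. The M-MDSC gate was CD11b+ Ly-6C high Ly-6G-, the PMN-MDSC libraries are not described in the study's text, and every library came from this 1 tumor line. Which mice the libraries came from is not in the labels, so p-values measure the spread between these libraries.

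The vacuolar ATPase is a proton pump that acidifies endosomes, lysosomes and some secretory granules. Its membrane sector V0 carries the protons and its cytosolic sector V1 hydrolyzes ATP, and several subunits exist as isoforms with their own tissues, such as d2 of osteoclasts and macrophages. Cathepsins are proteases that work mostly in the acid lumen the pump creates, where they degrade proteins, trim antigen for presentation (cathepsin S) or activate the serine proteases of neutrophil granules (cathepsin C).

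Cathepsin D, the main lysosomal aspartic protease, had the highest FPKM of all members in all 12 libraries. In vehicle-treated mice Ctsd was at 1570 and 1683 FPKM in M-MDSCs and at 4452 and 4053 FPKM in PMN-MDSCs. Next in vehicle M-MDSCs came Ctsz, at 746 and 757 FPKM, a carboxypeptidase, and Ctsc, at 541 and 539 FPKM. Ctss and Ctsb followed at 386 and 391 FPKM and at 268 and 288 FPKM. These 5 cathepsins were far above Ctsa (144 and 151 FPKM), Ctsh (140 and 145 FPKM) and Ctsl (89.9 and 93.1 FPKM). Ctsk, the collagen-degrading protease of osteoclasts, was low, at 4.76 and 4.82 FPKM, near Ctso at 4.28 and 4.92 FPKM. Ctse and Ctsf were at or below 1.64 FPKM in the vehicle M-MDSC libraries.

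Among V-ATPase genes the proteolipid gene Atp6v0c was the highest in vehicle M-MDSCs, at 769 and 745 FPKM. Its processed pseudogene Atp6v0c-ps2 took between 2.53% and 53.4% of the FPKM summed over both across the 12 libraries, including 53.4% and 2.53% in the 2 vehicle PMN-MDSC libraries. The sum varied far less within that group, at 1557 and 1321 FPKM. The split between these near-identical sequences is uncertain, and with all libraries neither gene was called in any comparison. The V1 genes, apart from Atp6v1g2, lay between 40.8 (Atp6v1h) and 220 FPKM (Atp6v1f) in the first vehicle M-MDSC library, and the V0 genes Atp6v0b, Atp6v0e and Atp6v0d1 between 165 and 220 FPKM.

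For 3 subunits, isoform genes were above the floor, and 1 isoform dominated each except subunit a. Atp6v1g1, the widespread isoform of subunit G, was at 126 to 232 FPKM, and Atp6v1g2, the isoform of neurons, made 0.548% to 2.41% of their sum. Of subunit a, Atp6v0a1 was at 58.1 to 151 FPKM and Atp6v0a2 at 10.2 to 16.3 FPKM, and Tcirg1, which encodes isoform a3 of osteoclasts and phagocytes and is not matched by the Atp6v prefix, made 47.3% to 63.0% of the 3 genes' sum. Of subunit d, Atp6v0d1, the widespread isoform, was at 135 to 193 FPKM, whereas Atp6v0d2 ranged from 1.24 to 85.1 FPKM.

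**Figure D1:**
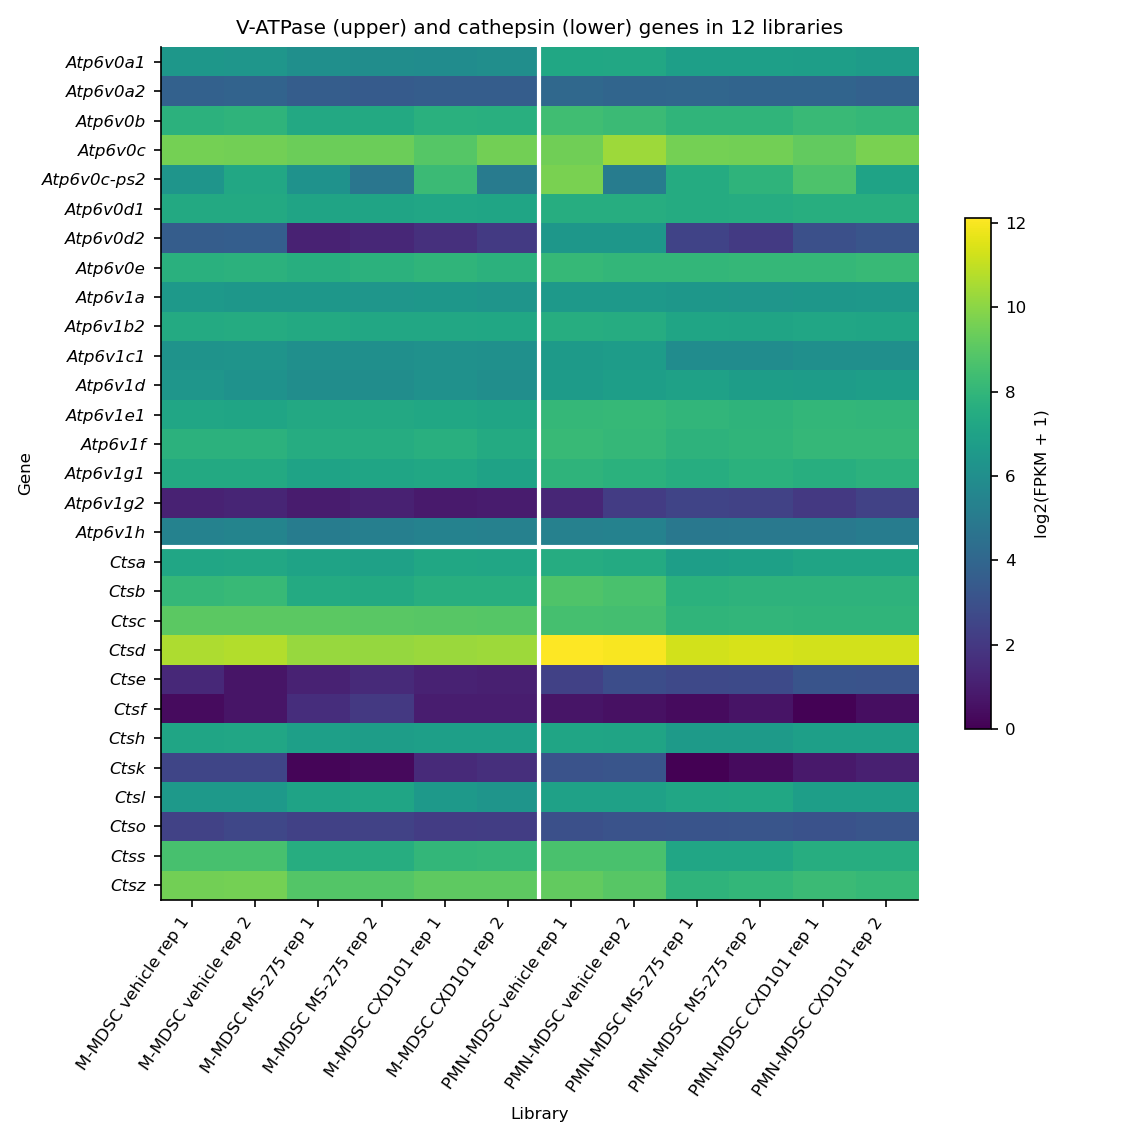
Heat map of log2(FPKM + 1) of the 29 genes (rows) in the 12 libraries (columns), with V-ATPase genes above and cathepsin genes below the white line. Ctsd is the brightest row in every library, and Atp6v0d2 and Ctsk are darker in all 8 inhibitor libraries than in the 4 vehicle libraries.

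Cathepsin transcripts had a different makeup in the 2 cell types, while the share of Ctsd stayed in a narrow range under all treatments. Ctsd made 40.3% to 41.7% of the summed FPKM of the 12 cathepsins in the 6 M-MDSC libraries and 65.1% to 67.9% in the 6 PMN-MDSC libraries. The ranges of the cell types did not overlap, and within each cell type the treated libraries lay among or close to the vehicle libraries. Ctsz made 19.1% and 18.7% of the sum in vehicle M-MDSCs and 15.7% and 16.1% with MS-275, while Ctsl made 2.31% and 2.29% with vehicle and 4.36% and 4.79% with MS-275. These shares are descriptions without a test.

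**Figure D2:**
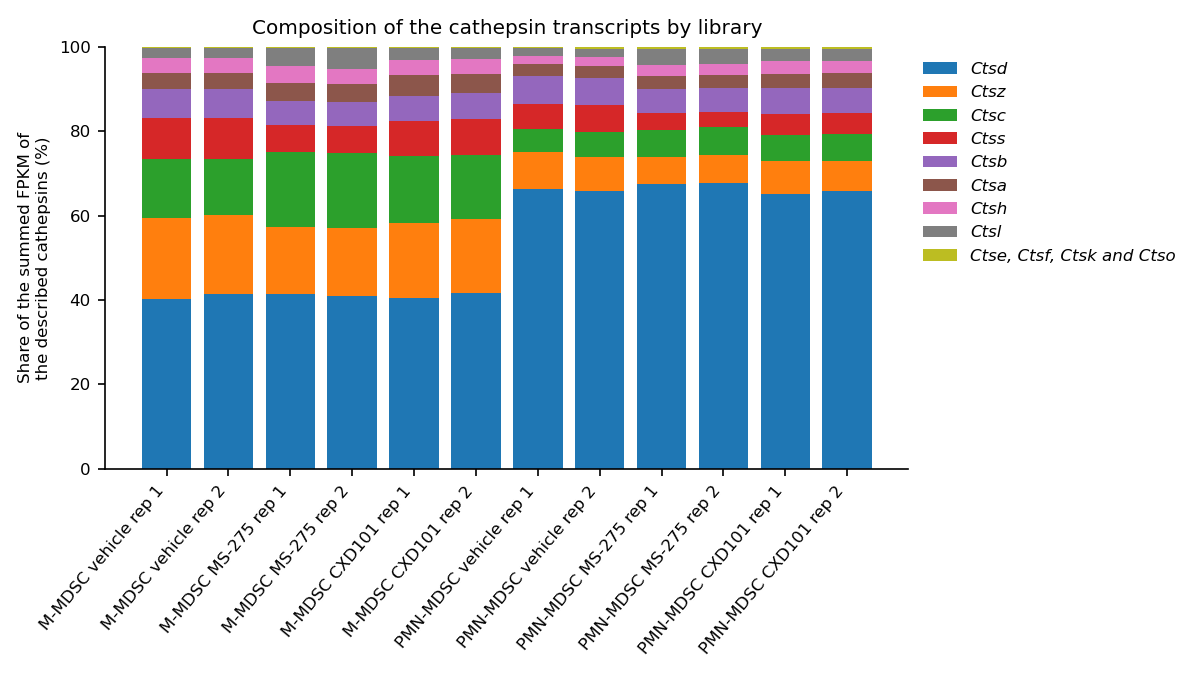
Stacked bars show the share (%) of each cathepsin in the summed FPKM of the 12 cathepsins in every library, with Ctse, Ctsf, Ctsk and Ctso drawn together. The Ctsd share is 40.3% to 41.7% in M-MDSCs and 65.1% to 67.9% in PMN-MDSCs under all 3 treatments.

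As a share of all FPKM, the cathepsins made 0.671% and 0.685% in vehicle M-MDSCs and 0.499% to 0.543% in the treated M-MDSC libraries. In PMN-MDSCs they made 1.02% and 0.912% with vehicle and 0.430% to 0.461% with an inhibitor. The V-ATPase genes made 0.595% and 0.536% of all FPKM in vehicle PMN-MDSCs and 0.337% to 0.364% in treated ones. S100a8 and S100a9, which encode the calprotectin subunits of neutrophils, took 10.2% and 13.7% of all FPKM in vehicle PMN-MDSCs and 27.3% to 30.9% in treated PMN-MDSCs. With these 2 genes left out of the total, the cathepsin share was still lower, at 1.14% and 1.06% with vehicle against 0.612% to 0.643% with an inhibitor, and that of the V-ATPase genes was 0.663% and 0.621% against 0.475% to 0.510%. In bulk samples, fewer cells that hold a transcript and less of it per cell cannot be told apart.

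Across all genes, the 2 libraries of a group correlated at r of 0.991 to 0.993 (log2 scale, genes above 0). The spacing of low FPKM values gave an approximate depth of 8350000 to 10800000 counted reads per M-MDSC library and 7150000 to 8210000 per PMN-MDSC library. The sums over marker lists were taken as a check of the labels. The 12 markers of PMN-MDSCs summed to 12154 to 26782 FPKM in M-MDSC libraries and to 74492 to 304003 FPKM in PMN-MDSC libraries, whereas the 9 markers of M-MDSCs summed to 3099 to 6178 and to 3512 to 9371 FPKM, so that list did not separate the cell types. Ccr2, the chemokine receptor of monocytes, did, at 124 to 147 FPKM in M-MDSCs and at 27.5 to 40.7 FPKM in PMN-MDSCs. It is 1 gene, and the M-MDSC markers went in both directions. By the limits for a call given below, 8 were tested in the vehicle libraries. Of these, 4 were lower in PMN-MDSCs, against 16.8% of all genes, and 3 higher, against 17.2%. Lists of lymphocyte and NK, and of erythroid markers summed to at most 5.23 and 0.873 FPKM. The 10 hepatocyte and liver tumor markers, with 6 or 7 of the 10 at 0 in both libraries of a group and Alb at or below 0.0528 FPKM, summed to 46.3 to 64.3 FPKM in M-MDSCs and to 157 to 273 FPKM in PMN-MDSCs.

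Promoter sequence was examined because many lysosomal genes carry the E-box CACGTG near their start, the core bound by the MiT/TFE factors TFEB, TFE3, MITF and TFEC. RefSeq windows (build GRCm38.p6, 250 bases before to 50 after the start) were found for 19 of the 29 members. Both strands were searched, and CACGTG reads the same on both. It was in the window of 8 of these 19 genes (Atp6v0b, Atp6v0d1, Atp6v0e, Atp6v1a, Ctsa, Ctsd, Ctsf and Ctsl) and in 8.09% of the 27025 genes of the table. The longer TCACGTG, which overlaps it, was in 6 of the 19 and in 4.29% of all. The sites are shown with 10 flanking bases where the window allows, on the gene's strand and with CACGTG in capitals, since these letters recur across both gene families.
Atp6v0b, chr4:117887350-117887375, minus strand, first letter 36 bases before the start: gcgcgggggtCACGTGgggtcggcgc
Atp6v0b, chr4:117887332-117887357, minus strand, 18 bases before: gtcggcgcatCACGTGcgccggtcag
Atp6v0d1, chr8:105566052-105566077, minus strand, across the start: ctactgcggtCACGTGagacgcggtg
Atp6v0e, chr17:26676389-26676414, plus strand, just after the start: gcgcgccgatCACGTGagcctctgtt
Atp6v1a, chr16:44139375-44139400, minus strand, 131 bases before: ttttttaaatCACGTGataggcttaa
Ctsa, chr2:164833751-164833776, plus strand, 12 bases before: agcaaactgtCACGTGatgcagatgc
Ctsa, chr2:164833768-164833793, plus strand, just after the start: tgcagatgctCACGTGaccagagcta
Ctsd, chr7:142388057-142388077, minus strand, 245 bases before: tccccCACGTGacctgtatcc
Ctsd, chr7:142387910-142387935, minus strand, 98 bases before: gcccgcgtctCACGTGacccgttgag
Ctsf, chr19:4855076-4855101, plus strand, 79 bases before: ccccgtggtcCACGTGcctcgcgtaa
Ctsl, chr13:64370741-64370766, minus strand, 236 bases before: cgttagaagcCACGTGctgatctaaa

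The windows of Ctss, Ctsk and Ctsz, the cathepsins called lower under an inhibitor in both cell types that had a window, held no CACGTG. Cathepsins with CACGTG were called lower as well, in PMN-MDSCs only: Ctsd with each inhibitor and Ctsa with MS-275. Ctsc, whose window held no CACGTG, was also called lower with each inhibitor in PMN-MDSCs only. Ctsf and Ctsl, which also hold it, were not called lower with an inhibitor. For comparison, the 250 bases before the start of Ctss, Ctsk and Ctsz are printed, all in lower case because they hold no match. Ctsk (chr3:95499256-95509362) and Ctss (chr3:95526786-95556403) are neighbors on the plus strand of chromosome 3. Ctss shares its locus with the pseudogene Hmgb1-ps5 on the same strand. A match or its absence here is a description of these letters and not of binding.
Ctss, chr3:95526536-95526785, plus strand: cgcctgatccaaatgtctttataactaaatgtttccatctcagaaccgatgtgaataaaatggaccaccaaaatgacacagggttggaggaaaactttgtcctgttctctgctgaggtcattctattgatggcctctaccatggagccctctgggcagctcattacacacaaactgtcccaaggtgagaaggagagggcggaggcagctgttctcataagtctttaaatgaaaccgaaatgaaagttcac
Ctsk, chr3:95498960-95499209, plus strand: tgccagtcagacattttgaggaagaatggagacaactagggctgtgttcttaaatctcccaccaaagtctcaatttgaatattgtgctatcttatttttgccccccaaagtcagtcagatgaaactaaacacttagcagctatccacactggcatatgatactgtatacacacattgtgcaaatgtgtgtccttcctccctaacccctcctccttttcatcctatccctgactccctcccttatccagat
Ctsz, chr2:174439040-174439289, minus strand: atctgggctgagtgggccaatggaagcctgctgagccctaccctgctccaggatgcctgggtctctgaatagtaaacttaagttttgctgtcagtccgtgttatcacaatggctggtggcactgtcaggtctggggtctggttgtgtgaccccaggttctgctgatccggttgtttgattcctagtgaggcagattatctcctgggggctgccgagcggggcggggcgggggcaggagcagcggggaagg

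PMN-MDSCs were compared with M-MDSCs in vehicle-treated mice to find where the cell types differ at baseline. A gene was called when its limma p-value, adjusted by Benjamini-Hochberg over all genes tested (adjusted p), was under 0.05 and its fold change above 1.5, on the log2(FPKM + 1) scale, which understates the change of genes at low FPKM. Of the 29 members, 7 were higher in PMN-MDSCs, against 17.2% of all 11662 genes tested, and 0 were lower, against 16.8% (in either direction 34.0%). At adjusted p alone, 18 members were higher and 2 were lower, or 20 of 29 against 62.0% of all genes. At an unadjusted p under 0.05, 19 were higher and 2 lower. The share of all genes at an unadjusted p is not given here or below, so such counts are descriptions only. The median log2 fold change was 0.42 over the 17 V-ATPase genes and 0.31 over the 12 cathepsins, against -0.01 over all genes tested.

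The largest difference was in Atp6v0d2 (chr4:19876841-19922605, minus strand), the d2 isoform. It was at 10.9 and 11.5 FPKM in M-MDSCs and at 85.1 and 84.1 FPKM in PMN-MDSCs, a log2 fold change of 2.81 ± 0.15 (SE, adjusted p = 9.9e-08). It made 6.20% and 6.52% of the d1 and d2 sum in M-MDSCs and 31.1% and 31.0% in PMN-MDSCs. Of the cathepsins, Ctsd was higher by 1.39 ± 0.06 (adjusted p = 3.05e-08) and Ctse, an aspartic protease of endosomes, by 1.57 ± 0.23 (adjusted p = 0.000139). Ctse was at 1.64 and 0.62 FPKM against 4.10 and 6.39 FPKM, so its values rest on few reads. Atp6v1e1, the E subunit of the stalk, was higher by 0.92 ± 0.06 (adjusted p = 2.11e-07) and Atp6v0a1 by 0.86 ± 0.06 (adjusted p = 7.82e-07).

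Ctsk and Ctsb were the other 2, near the fold limit. Ctsk was higher by 0.62 ± 0.15 (adjusted p = 0.00431) and Ctsb, a cysteine protease of lysosomes, by 0.59 ± 0.07 (adjusted p = 1.8e-05). Both lost the call under quantile normalization, Ctsk also with a pseudocount of 0.1 (adjusted p = 0.235) or without PMN-MDSC vehicle replicate 2, and Ctsb without M-MDSC vehicle replicate 1 or PMN-MDSC vehicle replicate 1. Ctsc and Ctsz went the other way, by -0.54 ± 0.05 (adjusted p = 3.18e-06) and -0.47 ± 0.08 (adjusted p = 0.000478), and passed the adjusted p but not the fold limit. Under quantile normalization Ctsc was called lower, and of the members 5 were higher and 1 lower. Without PMN-MDSC vehicle replicate 1 the Ctsz change was -0.60, past the fold limit. Ctss did not differ detectably, with a log2 fold change of 0.04 (95% CI -0.06 to 0.15, adjusted p = 0.431).

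**Figure D3:**
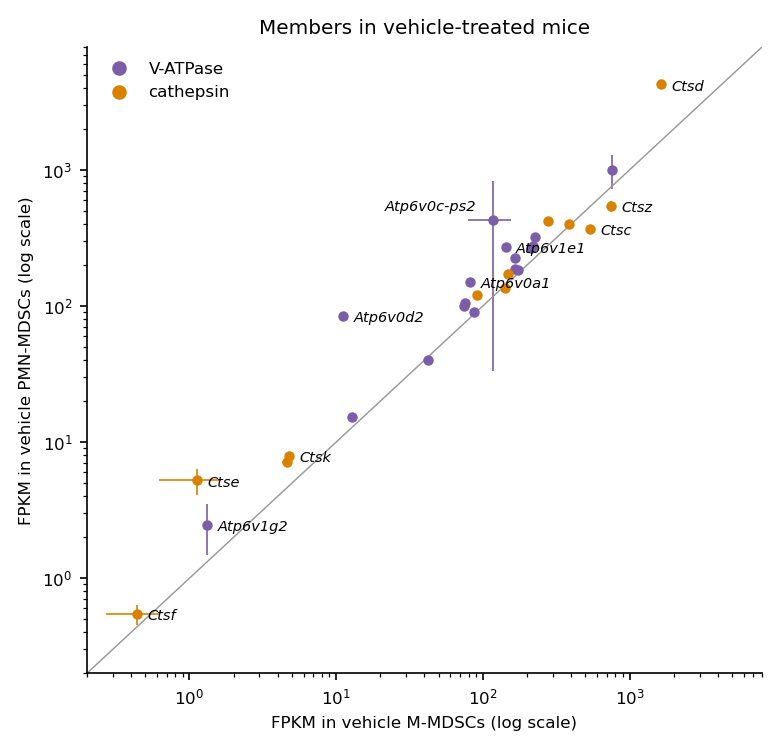
Mean FPKM of each member in vehicle M-MDSCs (x, log scale) and vehicle PMN-MDSCs (y, log scale), with bars from the lower to the higher of the 2 libraries and the line of equality. Atp6v0d2 and Ctsd lie above the line, and Ctsc and Ctsz lie below it.

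With MS-275 in M-MDSCs, 4 cysteine cathepsins and the d2 subunit gene were lower than with vehicle. Of the 29 members, 5 were lower, against 7.32% of all 11078 genes tested, and 1, Ctsf, was higher, against 10.1% (in either direction 6 members, against 17.5%). Ctsf reached 1 FPKM in no library but the 2 of M-MDSCs with MS-275, so it passed the floor only through the group where it is high, and its calls in this count and in those that follow are no support for a change. The median log2 fold change was -0.30 over the cathepsins and -0.25 over the V-ATPase genes, against -0.06 over all genes. Only 1 of 17 V-ATPase genes was called. At adjusted p alone 19 members passed, 17 of them lower and 2 higher, against 46.4% of all genes.

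Atp6v0d2 was at 1.24 and 1.51 FPKM with MS-275 against 10.9 and 11.5 FPKM with vehicle, a log2 fold change of -2.36 ± 0.15 (adjusted p = 1.42e-05). Ctsk was at 0.125 and 0.237 FPKM against 4.76 and 4.82 FPKM, a change of -2.29 ± 0.14 (adjusted p = 1.06e-05). Neither gene's treated libraries overlapped its vehicle libraries. By the estimated depth, Ctsk had about 5 reads with MS-275 and 137 with vehicle over both libraries, or 3.59% of the vehicle level (exact 95% interval 1.15% to 8.58%, counting error only). Cathepsin S, which trims the invariant chain of MHC class II, was at 189 and 184 FPKM against 386 and 391 FPKM, a change of -1.05 ± 0.05 (adjusted p = 4.49e-06).

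Ctsb fell from 268 and 288 FPKM to 170 and 162 FPKM (-0.74 ± 0.06, adjusted p = 3.79e-05). Ctsz fell from 746 and 757 FPKM to 467 and 464 FPKM (-0.69 ± 0.05, adjusted p = 2.49e-05), and under quantile normalization this change was -0.58, just below the fold limit. Ctsf, a widely expressed lysosomal cysteine protease, was at 1.99 and 3.01 FPKM with MS-275, at 0.268 and 0.616 FPKM with vehicle and at 0.932 and 0.928 FPKM with CXD101. Ctsl, the protease that can take the place of cathepsin S in other antigen-presenting cells, was at 129 and 138 FPKM against 89.9 and 93.1 FPKM. Its change of 0.54 ± 0.07 (adjusted p = 0.000483) was below the fold limit and above it under median-of-ratios scaling, under quantile normalization and without M-MDSC MS-275 replicate 1. The Ctsl level was 0.233 and 0.238 of the Ctss level with vehicle and at 0.682 and 0.749 of it with MS-275.

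CXD101 in M-MDSCs gave 2 calls, both lower. The background was 3.0% of all genes lower, and 0 of 29 members were higher, against 5.14% (in either direction 8.13%). At an unadjusted p under 0.05, 17 members were lower and 0 higher, and 11 passed at adjusted p alone, against 23.1% of all genes. Atp6v0d2 was at 2.20 and 3.17 FPKM, below both vehicle libraries (-1.74 ± 0.15, adjusted p = 0.000196). Ctsk was at 1.76 and 2.09 FPKM (-0.99 ± 0.14, adjusted p = 0.00174). Ctss at 259 and 267 FPKM (-0.56 ± 0.05, adjusted p = 0.000279), Ctsb (-0.52 ± 0.06, adjusted p = 0.000694) and Ctsz (-0.43 ± 0.05, adjusted p = 0.000778) passed the adjusted p and not the fold limit. Without M-MDSC CXD101 replicate 2, Ctss and Atp6v0c were also called, and the count was 4. The median log2 fold change was -0.31 over the cathepsins and -0.20 over the V-ATPase genes, against -0.02 over all genes.

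In PMN-MDSCs several of the cathepsins tested were called lower with an inhibitor, and most V-ATPase genes were not called. With MS-275, 9 of the 28 members tested were lower, against 14.2% of all 11184 genes, and 0 were higher, against 14.6% (in either direction 28.7%). These were 7 of 11 cathepsins and 2 of 17 V-ATPase genes, and 16 members passed at adjusted p alone, against 53.7% of all genes. With CXD101, 8 of 28 were lower, against 9.54% of all genes, and 0 were higher, against 11.9% (in either direction 21.4%). These were 6 of 11 cathepsins and the same number of V-ATPase genes as with MS-275, and 14 members passed at adjusted p alone, against 45.3%. At an unadjusted p under 0.05, 2 members were higher and 17 lower with MS-275, and 1 was higher and 15 lower with CXD101. The median log2 fold change over the cathepsins was -0.60 with MS-275 and -0.61 with CXD101, over the V-ATPase genes -0.15 and -0.10, and over all genes -0.03 with each. Under median-of-ratios scaling and under quantile normalization, 7 members were lower with each inhibitor and 0 higher. There Ctsc lost its calls, and Ctsa its call with MS-275. Both comparisons share the 2 vehicle libraries.

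Atp6v0d2 had the largest fitted change of the members on the log2(FPKM + 1) scale, while with MS-275 and a pseudocount of 0.1 that of Ctsk was larger (-5.38 against -4.46). Atp6v0d2 was at 85.1 and 84.1 FPKM with vehicle, at 4.43 and 3.18 FPKM with MS-275 and at 6.84 and 8.03 FPKM with CXD101. The log2 fold changes were -4.17 ± 0.14 (adjusted p = 1.51e-06) with MS-275 and -3.35 ± 0.14 (adjusted p = 5.07e-06) with CXD101, and d2 made 1.73% to 4.01% of the d1 and d2 sum in the treated libraries. Atp6v0d1 was at 177 to 193 FPKM in treated and at 188 and 189 FPKM in vehicle PMN-MDSCs. Its log2 fold change was -0.07 (95% CI -0.20 to 0.05, adjusted p = 0.286) with MS-275 and 0.03 (95% CI -0.09 to 0.16, adjusted p = 0.649) with CXD101. The 2 isoforms of the d subunit therefore had unequal changes.

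Ctsk was at 7.66 and 8.12 FPKM with vehicle. With MS-275 it was listed at 0 in 1 library and at 0.269 FPKM in the other, and with CXD101 it was at 0.760 and 1.11 FPKM. The fitted changes were -2.98 ± 0.18 (adjusted p = 1.43e-05) and -2.20 ± 0.18 (adjusted p = 8.82e-05), and the first rests on about 3 reads against 192, or 1.72% of the vehicle level (exact 95% interval 0.351% to 5.10%, counting error only). Ctss was at 403 and 398 FPKM with vehicle, at 144 and 143 FPKM with MS-275 (-1.48 ± 0.05, adjusted p = 2.32e-06) and at 189 and 187 FPKM with CXD101 (-1.09 ± 0.05, adjusted p = 1.03e-05). All treated libraries were below both vehicle libraries for both genes.

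Ctsz, Ctsb and Ctsd followed the same direction. Ctsz was at 591 and 495 FPKM with vehicle, at 234 and 258 FPKM with MS-275 (-1.13 ± 0.10, adjusted p = 6.91e-05) and at 302 and 276 FPKM with CXD101 (-0.90 ± 0.10, adjusted p = 0.00031). Ctsb was at 445 and 396 FPKM, then 211 and 224 FPKM (-0.95 ± 0.07, adjusted p = 4.18e-05) and 230 and 225 FPKM (-0.88 ± 0.07, adjusted p = 9.11e-05). Ctsd was at 4452 and 4053 FPKM, then 2479 and 2641 FPKM (-0.73 ± 0.07, adjusted p = 0.000124) and 2495 and 2500 FPKM (-0.77 ± 0.07, adjusted p = 0.000169). For each of the 3 genes the vehicle libraries were the 2 highest of the 6.

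Ctsc, the activator of granule serine proteases, was at 375 and 365 FPKM with vehicle and at 241 to 250 FPKM in the 4 treated libraries. Its changes, -0.59 ± 0.06 (adjusted p = 0.000107) with MS-275 and -0.61 ± 0.06 (adjusted p = 0.00015) with CXD101, and that of Ctsa under MS-275, -0.60 ± 0.07 (adjusted p = 0.000219), were just past the fold limit and lost the call under median-of-ratios scaling and under quantile normalization. The MS-275 calls of both genes were also lost without PMN-MDSC vehicle replicate 1 or PMN-MDSC MS-275 replicate 1. Ctsa, the carboxypeptidase that protects beta-galactosidase and neuraminidase, overlaps Pltp and Neurl2 on the other strand.

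Atp6v1c1, the C subunit that links V1 to V0 and is involved in their reversible assembly, was the other V-ATPase gene called. It was at 97.4 and 103 FPKM with vehicle, at 57.8 and 57.9 FPKM with MS-275 (-0.78 ± 0.06, adjusted p = 5.57e-05) and at 64.3 and 63.6 FPKM with CXD101 (-0.64 ± 0.06, adjusted p = 0.000219). Atp6v0a1 changed by -0.41 ± 0.07 (adjusted p = 0.00134) and -0.52 ± 0.07 (adjusted p = 0.000626), below the fold limit, and was called under CXD101 without PMN-MDSC CXD101 replicate 1. Atp6v0a2 changed by -0.07 (95% CI -0.31 to 0.17, adjusted p = 0.592) and -0.18 (95% CI -0.41 to 0.06, adjusted p = 0.195).

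The G isoforms were not called. Atp6v1g1 changed by -0.15 ± 0.09 (adjusted p = 0.182) with MS-275 and by -0.10 ± 0.09 (adjusted p = 0.39) with CXD101. Atp6v1g2, at 1.48 and 3.49 FPKM with vehicle and at 2.98 to 4.65 FPKM when treated, changed by 0.70 ± 0.27 (adjusted p = 0.0578) with MS-275, was called higher there with the replicate block and in a model of all 12 libraries, was called higher with each inhibitor without PMN-MDSC vehicle replicate 2, and overlaps Nfkbil1 on the other strand. Ctsl was at 121 FPKM in both vehicle libraries, at 145 and 146 FPKM with MS-275 (0.26 ± 0.06, adjusted p = 0.00542) and at 111 and 109 FPKM with CXD101 (-0.14 ± 0.06, adjusted p = 0.074). The Ctsl level was 0.300 and 0.305 of the Ctss level with vehicle, 1.01 and 1.02 of it with MS-275 and 0.585 and 0.582 of it with CXD101. Ctse was at 7.97 and 7.62 FPKM with CXD101 against 4.10 and 6.39 FPKM (0.52 ± 0.17, adjusted p = 0.0416), below the fold limit and above it without PMN-MDSC vehicle replicate 2.

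The remaining members were Atp6v0b, Atp6v0e, Atp6v1a, Atp6v1b2, Atp6v1d, Atp6v1e1, Atp6v1f, Atp6v1h, Ctsh and Ctso, beside Atp6v0c and its pseudogene. None of them was called in any drug comparison with all libraries, and of the first 10 the largest changes were those of Atp6v0b and Ctsh. Atp6v0b, a proteolipid subunit, was at 220 and 237 FPKM with vehicle and at 160 and 164 FPKM with MS-275 in M-MDSCs (-0.49 ± 0.06, adjusted p = 0.000375). Ctsh, an aminopeptidase, was at 138 and 135 FPKM with vehicle and at 97.0 and 97.1 FPKM with MS-275 in PMN-MDSCs (-0.49 ± 0.06, adjusted p = 0.000309). Atp6v0c passed the call limits in PMN-MDSCs with each inhibitor, and in the comparison of the cell types, once PMN-MDSC vehicle replicate 1 was left out.

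Macrophage markers moved with these genes. The 15 macrophage markers summed to 733 and 875 FPKM in vehicle PMN-MDSCs, to 234 to 261 FPKM with MS-275 and to 278 to 287 FPKM with CXD101, with 12, 7 and 11 of the 15 at a mean of at least 1 FPKM. In M-MDSCs the sums were 360 to 361, 266 to 275 and 324 to 343 FPKM. Of the 12 markers tested, 9 were lower and 0 higher in M-MDSCs and 9 lower and 1 higher (Apoe) in PMN-MDSCs with MS-275, and 5 were lower and 1 higher (Marco) in M-MDSCs and 8 lower and 0 higher in PMN-MDSCs with CXD101. Over all genes tested, 7.32% were lower and 10.1% higher in M-MDSCs and 14.2% and 14.6% in PMN-MDSCs with MS-275. With CXD101 the shares were 3.0% and 5.14% in M-MDSCs and 9.54% and 11.9% in PMN-MDSCs. The largest part of the macrophage sum in PMN-MDSCs was Gpnmb, at 568 and 452 FPKM with vehicle and at 72.9 to 120 FPKM when treated. C1qa was at 1.84 to 3.96 FPKM in vehicle PMN-MDSCs and at 0 to 0.928 FPKM in treated ones. The 8 osteoclast markers summed to 28.8 to 30.8 FPKM in vehicle M-MDSCs and to 23.7 to 26.4 FPKM in treated ones, and to 51.7 to 57.4 and 41.7 to 44.5 FPKM in PMN-MDSCs. Of the 5 tested, 2 were lower and 0 higher with each inhibitor in M-MDSCs, and in PMN-MDSCs 3 were lower with MS-275 and 2 with CXD101, with 1 higher under each, Itgb3, at 3.02 and 2.45 FPKM with vehicle and at 4.75 to 7.89 FPKM when treated. Calcr was at 0 in every library and Ocstamp was at or below 0.192 FPKM, and Dcstamp, which acts in macrophage and osteoclast fusion, was at 2.50 and 2.98 FPKM in vehicle PMN-MDSCs and at 0.172 to 0.228 FPKM in treated ones.

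Other marker lists moved as well. The dendritic cell list summed to 22.3 and 26.3 FPKM in vehicle PMN-MDSCs and to 7.30 to 9.69 FPKM in treated ones, and to 12.6 and 17.8 against 2.37 to 6.99 FPKM in M-MDSCs. The PMN-MDSC list summed to 74492 and 100766 FPKM in vehicle PMN-MDSCs and to 263194 to 304003 FPKM in treated ones, and to 12154 to 12778 against 22779 to 26782 FPKM in M-MDSCs. The M-MDSC list summed to 3099 to 3284 FPKM in vehicle and 5771 to 6178 FPKM in treated M-MDSCs, and to 3512 to 3533 against 8992 to 9371 FPKM in PMN-MDSCs. Of the 12 PMN-MDSC markers, 9 were higher in PMN-MDSCs with each inhibitor, while 1 was lower with MS-275 and 0 with CXD101. In M-MDSCs 5 were higher with each, while 3 were lower with MS-275 and 1 with CXD101. For the M-MDSC markers, 3 of 8 tested were higher and 2 lower with each inhibitor in PMN-MDSCs. In M-MDSCs 3 of 7 were higher and 0 lower with each. The shares over all genes are those given beside the macrophage markers. The hepatocyte and liver tumor list summed to 157 to 163 FPKM in vehicle PMN-MDSCs and to 232 to 273 FPKM in treated ones, and to 60.7 to 64.3 against 46.3 to 50.9 FPKM in M-MDSCs. The eosinophil list summed to 161 to 197 FPKM in vehicle M-MDSCs and to 383 to 424 FPKM in treated ones, and to 342 to 493 FPKM over the PMN-MDSC libraries. The basophil and mast cell list summed to 71.5 and 96.0 FPKM in vehicle PMN-MDSCs, to 29.2 to 32.4 FPKM with MS-275 and to 77.6 to 78.5 FPKM with CXD101. Their part in the changes of Atp6v0d2, Ctsk and the cathepsins was not tested.

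**Figure D4:**
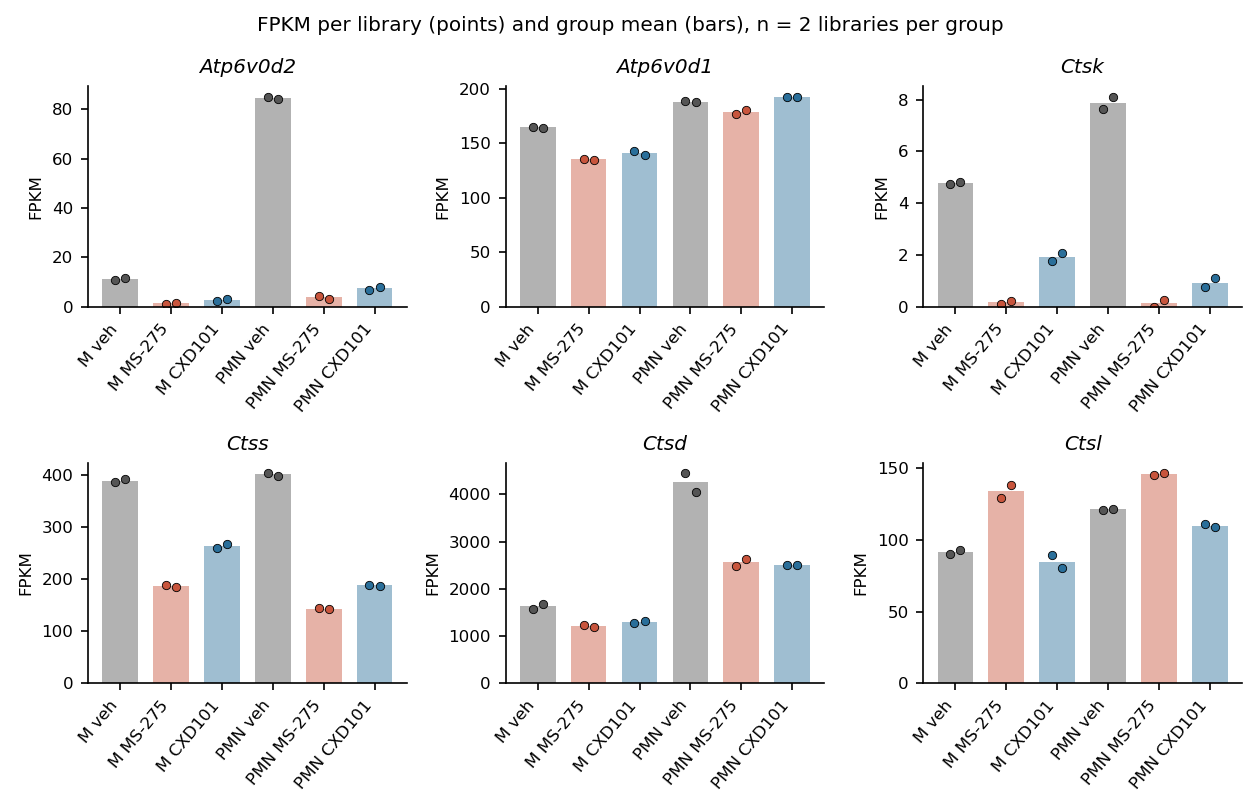
FPKM of 6 members in the 6 groups, as points for the 2 libraries and bars for their mean, on linear axes from 0. Atp6v0d2, Ctsk and Ctss are lower in all treated libraries than in the vehicle libraries of the same cell type, while Atp6v0d1 stays between 135 and 193 FPKM and Ctsl is highest with MS-275 in each cell type.

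The responses of the 2 cell types were compared as an interaction, the log2 fold change in PMN-MDSCs minus that in M-MDSCs, in a model of all 12 libraries. For MS-275, 3 members were lower by this measure, against 9.48% of all genes, and 0 higher, against 8.65% (in either direction 18.1%). For CXD101, 2 were lower, against 6.59%, and 0 higher, against 7.31% (in either direction 13.9%). At an unadjusted p under 0.05, 3 were higher with each inhibitor, and 13 were lower with MS-275 and 11 with CXD101. At adjusted p alone 14 and 10 members passed, against 31.0% and 24.2% of all genes. The count under MS-275 was 1 without M-MDSC MS-275 replicate 1, and that under CXD101 was 4 without PMN-MDSC vehicle replicate 2. Atp6v0d2 fell further in PMN-MDSCs, with a log2 difference between the responses of -1.80 ± 0.22 (adjusted p = 0.000224) under MS-275 and -1.61 ± 0.22 (adjusted p = 0.000619) under CXD101. For Ctsk the differences were -0.68 ± 0.21 (adjusted p = 0.0327) and -1.22 ± 0.21 (adjusted p = 0.00265). Both Ctsk calls were lost with a pseudocount of 0.1, and the MS-275 one also without M-MDSC vehicle replicate 1 or 2, M-MDSC MS-275 replicate 1 or 2, PMN-MDSC vehicle replicate 1 or 2, or PMN-MDSC MS-275 replicate 1.

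The other member counted under MS-275 was Ctsf, which was below 1 FPKM in all PMN-MDSC libraries, at 0.634 and 0.456 FPKM with vehicle and at 0.295 and 0.559 FPKM with MS-275. Ctss, Ctsc, Ctsz, Ctsd, Ctsa and Atp6v1c1 had negative differences under both inhibitors that passed the adjusted p and not the fold limit. They ranged from -0.30 (Ctsd, adjusted p = 0.0291) to -0.58 (Atp6v1c1, adjusted p = 0.000409) under MS-275 and from -0.36 (Ctsa, adjusted p = 0.013) to -0.53 (Ctss, adjusted p = 0.000423) under CXD101. Under MS-275 Atp6v1c1 was just below the fold limit and was called with a pseudocount of 0.1, median-of-ratios scaling or quantile normalization, and without M-MDSC vehicle replicate 2, M-MDSC MS-275 replicate 2 or PMN-MDSC vehicle replicate 1. Atp6v0d1 had positive differences that passed the adjusted p under both inhibitors, of 0.21 ± 0.06 (adjusted p = 0.0312) and 0.26 ± 0.06 (adjusted p = 0.0153). Under MS-275 alone, Atp6v1d had a positive difference of 0.45 ± 0.12 (adjusted p = 0.0193), and Atp6v1b2, Atp6v1e1 and Ctsl had negative ones of -0.31 to -0.28. Under CXD101 alone, Ctsb had a negative difference of -0.36 ± 0.09 (adjusted p = 0.0171).

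MS-275 and CXD101 were compared with each other at the same dose and duration in each cell type, over all genes tested. In M-MDSCs 4 members were called, 2 higher, against 3.22% of all genes, and 2 lower, against 1.17% (in either direction 4.40%), and 9 passed at adjusted p alone, against 13.7%. Ctsk was lower with MS-275 (-1.31 ± 0.14, adjusted p = 0.00142), at 0.125 and 0.237 FPKM against 1.76 and 2.09 FPKM. Ctsl was higher with MS-275, at 129 and 138 FPKM against 89.5 and 80.2 FPKM (0.65 ± 0.07, adjusted p = 0.00163), and lost the call without M-MDSC CXD101 replicate 2. The second of the 2 higher was Ctsf, whose levels are given above and whose call was lost without M-MDSC CXD101 replicate 1 or 2. Atp6v0d2 was lower (-0.62 ± 0.15, adjusted p = 0.0294) and lost the call without M-MDSC MS-275 replicate 1 or 2 or M-MDSC CXD101 replicate 2. The count was 2 without M-MDSC CXD101 replicate 2, and also 2 without M-MDSC MS-275 replicate 1 or 2, where Ctsf was below the FPKM floor and not tested.

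In PMN-MDSCs 1 member was called, Atp6v0d2, lower with MS-275 (-0.82 ± 0.14, adjusted p = 0.0448), against 0.340% of all genes lower and 0.465% higher (in either direction 0.805%). At adjusted p alone 3 members passed, against 1.17% of all genes. The call was lost without any 1 of the 4 libraries compared. Ctss (-0.39 ± 0.05, adjusted p = 0.0251) and Ctsl (0.41 ± 0.06, adjusted p = 0.0251) passed the adjusted p and not the fold limit. Ctsk, at 0 and 0.269 FPKM with MS-275 and at 0.760 and 1.11 FPKM with CXD101, missed the adjusted p (-0.78, 95% CI -1.19 to -0.36, adjusted p = 0.102) and was called in a model of all 12 libraries. Ctsd and Ctsb did not differ detectably between the inhibitors in PMN-MDSCs, with log2 differences of 0.03 (95% CI -0.13 to 0.20, adjusted p = 0.864) and -0.06 (95% CI -0.23 to 0.10, adjusted p = 0.726). For Ctsc the difference was 0.02 (95% CI -0.11 to 0.15, adjusted p = 0.883).

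Tcirg1, the a3 isoform gene, was at 228 and 193 FPKM in vehicle PMN-MDSCs, at 114 and 130 FPKM with MS-275 (-0.79 ± 0.10, adjusted p = 0.000535) and at 151 and 134 FPKM with CXD101 (-0.56 ± 0.10, adjusted p = 0.00371). Only the first was called, and in M-MDSCs it changed by -0.39 ± 0.07 (adjusted p = 0.00171) and 0.02 ± 0.07 (adjusted p = 0.835). It was higher in vehicle PMN-MDSCs than in vehicle M-MDSCs, where it was at 109 and 117 FPKM (0.89 ± 0.09, adjusted p = 1.3e-05). Of the accessory subunit genes, Atp6ap1 changed by -0.40 ± 0.05 (adjusted p = 0.000622) with MS-275 in M-MDSCs and by -0.48 ± 0.07 (adjusted p = 0.000686) in PMN-MDSCs. Atp6ap2, also the renin receptor, changed by -0.29 ± 0.06 (adjusted p = 0.00429) and -0.26 ± 0.06 (adjusted p = 0.0088), and none of these 4 changes was called. Of the 9 accessory and assembly genes, 8 were tested, and Tcirg1 was the only one called in a comparison of an inhibitor with vehicle.

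Of the MiT/TFE factors that bind CACGTG, Tfeb was at 24.5 and 26.2 FPKM in vehicle M-MDSCs and at 14.0 and 13.2 FPKM with MS-275 (-0.85 ± 0.08, adjusted p = 9.32e-05). Tfe3 fell from 29.3 and 30.2 FPKM to 18.5 and 18.0 FPKM there (-0.67 ± 0.07, adjusted p = 0.000155). Under CXD101 in M-MDSCs, Tfeb (-0.46 ± 0.08, adjusted p = 0.00514) and Tfe3 (-0.53 ± 0.07, adjusted p = 0.0015) passed the adjusted p and not the fold limit. In PMN-MDSCs the gene called was Mitf, at 12.1 and 11.7 FPKM with vehicle, at 5.27 and 4.89 FPKM with MS-275 (-1.09 ± 0.10, adjusted p = 0.000114) and at 4.90 and 5.04 FPKM with CXD101 (-1.11 ± 0.10, adjusted p = 0.00017). Tfec, at 157 and 160 FPKM in vehicle M-MDSCs and at 74.3 and 77.3 FPKM in vehicle PMN-MDSCs, changed by 0.23 ± 0.06 (adjusted p = 0.0151) in M-MDSCs and by -0.58 ± 0.07 (adjusted p = 0.000332) in PMN-MDSCs with MS-275, below the fold limit. At an unadjusted p under 0.05, 3 of the 4 factors were lower with MS-275 and 4 with CXD101 in PMN-MDSCs, and 0 higher. In M-MDSCs 3 were lower and 1 higher with each inhibitor. By the interaction, 2 of the 4 were called lower with each, against 9.48% of all genes for MS-275 and 6.59% for CXD101.

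Other lysosomal genes were taken from lists chosen with the members. Over all genes tested, 10.1% were higher and 7.32% lower with MS-275 in M-MDSCs, and 5.14% and 3.0% with CXD101. In PMN-MDSCs the shares were 14.6% and 14.2% with MS-275 and 11.9% and 9.54% with CXD101. They are the background for the list counts here and in the paragraphs on membrane, sorting and inhibitor genes. Of 40 other lysosomal hydrolases, all tested, 2 were higher and 2 lower with MS-275 in M-MDSCs, 1 higher and 1 lower with CXD101 in M-MDSCs, 3 higher and 6 lower with MS-275 in PMN-MDSCs, and 2 higher and 5 lower with CXD101 in PMN-MDSCs. Lgmn, an asparaginyl endopeptidase that processes cathepsins, was at 88.0 and 73.4 FPKM in vehicle PMN-MDSCs and at 26.7 to 30.8 FPKM in treated ones (-1.50 with MS-275, adjusted p = 3e-05, and -1.46 with CXD101, adjusted p = 5.3e-05). Ppt1, a lysosomal thioesterase, went the other way in M-MDSCs, from 43.6 and 42.7 FPKM to 102 and 96.5 FPKM with MS-275 (1.18, adjusted p = 4.5e-06) and to 72.3 and 72.9 FPKM with CXD101 (0.74, adjusted p = 0.00015). In the hydrolase list the share lower with MS-275 in PMN-MDSCs, 6 of 40, was near the background of 14.2%.

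Of 19 lysosomal membrane genes, 1 was higher and 5 lower with MS-275 in PMN-MDSCs, 0 higher and 3 lower with CXD101, and in M-MDSCs 1 higher and 2 lower with MS-275 and 1 higher and 1 lower with CXD101. Cd63, a tetraspanin of lysosomes and granules, was at 89.1 and 90.8 FPKM in vehicle M-MDSCs, at 421 and 448 FPKM with MS-275 (2.26, adjusted p = 4.6e-07) and at 281 and 276 FPKM with CXD101 (1.62, adjusted p = 5.7e-06). Slc11a1, the metal transporter of phagosomes, fell in M-MDSCs from 9.15 and 10.1 FPKM to 2.71 and 3.57 FPKM with MS-275 (-1.36, adjusted p = 8.4e-05), and in PMN-MDSCs from 131 and 138 FPKM to 61.8 and 62.8 FPKM (-1.10, adjusted p = 1.1e-05).

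Among 13 genes of lysosomal enzyme sorting, 12 were tested in M-MDSCs, with 1 higher under MS-275 and 0 called under CXD101 (3 at an unadjusted p under 0.05). In PMN-MDSCs 13 were tested, with 2 higher and 3 lower under MS-275 and 1 higher and 2 lower under CXD101. Gga2, an adaptor of the mannose 6-phosphate route, was among those lower (-1.36 with MS-275 and -1.37 with CXD101), and Sort1, which encodes sortilin, among those higher (0.77 and 0.68). Of 12 genes of the Ragulator and Rag complex, which docks on lysosomes beside the V-ATPase, 11 were tested. In M-MDSCs 2 were lower under MS-275 and 0 called under CXD101 (5 at an unadjusted p under 0.05), and in PMN-MDSCs 1 was higher and 2 lower under MS-275 and 1 higher and 1 lower under CXD101. The PMN-MDSC counts of this list were near the shares over all genes. Of 8 assembly regulators tested, 1 was higher with each inhibitor in M-MDSCs, namely Rogdi (0.63 and 0.65), and 1 with MS-275 in PMN-MDSCs, namely Dmxl2 (0.69), both parts of the complex that assembles V1 on V0. None of the 8 was lower, also at an unadjusted p under 0.05.

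Protease inhibitors, taken from a list of cystatins and serpins, were called in both directions. Cstb, which encodes the cytosolic inhibitor stefin B, was at 449 and 460 FPKM in vehicle M-MDSCs and at 263 and 292 FPKM with MS-275 (-0.71, adjusted p = 7e-05), and in PMN-MDSCs it fell from 831 and 868 FPKM to 382 and 369 FPKM with MS-275 (-1.18, adjusted p = 6.2e-06) and to 404 and 418 FPKM with CXD101 (-1.05, adjusted p = 1.5e-05). Serpinb1a, an inhibitor of neutrophil serine proteases, rose in PMN-MDSCs from 56.4 and 65.0 FPKM to 309 and 305 FPKM with MS-275 (2.32, adjusted p = 1.5e-06) and to 266 and 277 FPKM with CXD101 (2.14, adjusted p = 2.7e-06). Of the 5 of 7 listed inhibitors that were tested, 1 was higher and 2 lower with MS-275 in PMN-MDSCs, and 1 higher and 1 lower with CXD101.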

How the data were processed

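Poly(A) RNA of 12 libraries, 2 for each of 6 groups, had been sequenced after stranded library preparation. Per the submitters' processing notes, the authors used TopHat2 2.1.1, Bowtie2 2.2.8, SAMtools 0.1.18 and Cuffdiff 2.2.1 with build mm10, and deposited 1 file of FPKM values per gene and library. No read counts were used here. Whether counting used strand is not given in the sources used here.

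Values were transformed to log2(FPKM + 1). Genes with FPKM of at least 1 in 2 or more libraries of a model were fitted with limma 3.58.1 (R 4.3.3, intensity trend, two-sided tests) and adjusted by Benjamini-Hochberg over all genes tested. Comparisons within a cell type used its 6 libraries, and the comparison of cell types and the interactions used all 12. A call needed an adjusted p under 0.05 and a fold change above 1.5. Errors beside fold changes are standard errors. Two-sided 95% intervals are from the same fits, and the fitting code was tested on simulated data.

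An approximate depth came from the spacing of FPKM values below 0.5 in 3076 single-transcript genes, in which at least 45.0% of the low values of a library lay within 0.1 of a whole read, so read numbers are approximate and intervals from them cover counting error only. The median standard error of the members was 0.07 in the drug and cell type comparisons and 0.10 in each interaction. Gene positions are from GENCODE on GRCm38 (mm10) and promoter windows from RefSeq.

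Every member above the floor was described. From each other list, the genes named were among the at most 3 largest called ones under each inhibitor in each cell type, beside Tcirg1, the accessory subunits and the MiT/TFE factors. Members and lists were chosen with earlier results of these data known. The study's text describes RNA sequencing of M-MDSCs, and the PMN-MDSC groups rest on the labels.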

Additional observations from a re-analysis of the deposited data

Results flagged for a closer look

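The test of the difference between the responses of PMN-MDSCs and M-MDSCs called 5 results (limma, Benjamini-Hochberg adjusted p). Of the 29 members, 3 were called for MS-275, or 10.3% against 18.1% of all genes, and 2 for CXD101, or 6.90% against 13.9%. All were lower by this measure, against 9.48% and 6.59% of all genes lower.

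Atp6v0d2 went from 10.9 and 11.5 FPKM with vehicle to 1.24 and 1.51 FPKM with MS-275 in M-MDSCs and from 85.1 and 84.1 to 4.43 and 3.18 FPKM in PMN-MDSCs, a log2 difference of -1.80 between responses (adjusted p = 0.000224). With CXD101 it was at 2.20 and 3.17 FPKM in M-MDSCs and at 6.84 and 8.03 FPKM in PMN-MDSCs, a difference of -1.61 (adjusted p = 0.000619).

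Ctsk went from 4.76 and 4.82 to 0.125 and 0.237 FPKM in M-MDSCs and from 7.66 and 8.12 to 0 and 0.269 FPKM in PMN-MDSCs with MS-275, a difference of -0.68 (adjusted p = 0.0327). With CXD101 it was at 1.76 and 2.09 FPKM in M-MDSCs and at 0.760 and 1.11 FPKM in PMN-MDSCs, a difference of -1.22 (adjusted p = 0.00265). Both Ctsk differences were below the limits with a pseudocount of 0.1.

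Ctsf went from 0.268 and 0.616 to 1.99 and 3.01 FPKM in M-MDSCs and from 0.634 and 0.456 to 0.295 and 0.559 FPKM in PMN-MDSCs with MS-275, a difference of -1.39. It reached 1 FPKM in no other library than the 2 of M-MDSCs with MS-275 and so passed the floor only through the group where it is high, and this value is a description.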

How the results depend on the processing

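Of 4782 pairs of a gene's value and an alternative, 4596 stayed on their side of the limits, 69 lost a call, 115 gained one, and 2 reversed. Counts of members called are given in the order M-MDSC MS-275, M-MDSC CXD101, M-MDSC MS-275 against CXD101, the same 3 in PMN-MDSCs, PMN-MDSCs against M-MDSCs, and the MS-275 and CXD101 interactions. With all libraries they were 6, 2, 4, 9, 8, 1, 7, 3 and 2. Adjusted p alone gave 19, 11, 9, 16, 14, 3, 20, 14 and 10. A fold change above 2 gave 1 for M-MDSC CXD101, 1 for M-MDSC MS-275 against CXD101, 4, 3 and 0 in PMN-MDSCs, and 3 for the cell types. An FPKM floor of 5 gave 1 for M-MDSC CXD101, 2 for M-MDSC MS-275 against CXD101 and 1 for the MS-275 interaction, and no filter gave 2 for M-MDSC MS-275 against CXD101. Quantile normalization gave 7 and 4 for the interactions, and a pseudocount of 0.1 gave 1 for the CXD101 interaction.

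For PMN-MDSC MS-275 against CXD101, 0 members were called with a pseudocount of 0.1, no filter, quantile normalization, no intensity trend, only the 4 libraries compared, or the replicate block, and 2 in a model of all 12 libraries. Between groups of the same cell type, same-numbered libraries correlated at -0.14 to 0.09 in their deviations from group means. This check did not cover M-MDSC and PMN-MDSC libraries of the same number. Whether those came from the same tumors was not tested, and the models of all 12 libraries treat them as independent. Leaving out 1 library at a time gave, in the same order, 5 to 6, 2 to 4, 2 to 4, 7 to 11, 8 to 11, 0 to 1, 6 to 10, 1 to 3 and 2 to 4.

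Atp6v0c-ps2 in PMN-MDSCs, at 0.26 with MS-275 and 0.48 with CXD101 on the log2 scale and not called, was called lower at -2.04 and -1.82 without PMN-MDSC vehicle replicate 2 and higher at 2.56 and 2.78 without PMN-MDSC vehicle replicate 1.

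With 2 libraries a group, the spread rests on few values. Ctse, Ctsf, Ctsk and Atp6v1g2 rest on few reads in some groups. The causes of these changes were not tested.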
